A study of Mus musculus with 24 samples.

Results

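The acyl-CoA thioesterase genes Acot1, Acot2, Acot3, Acot4, Acot5, Acot7, Acot8, Acot9, Acot12, and Acot13 were examined in liver RNA of lipodystrophic and control mice. They were chosen by name from the 23972 genes counted, and all 10 had a row in the file. The list names no value or threshold, but it was drawn up with earlier results of these data known, so the values below describe these genes and are not an independent check of any difference between the groups. All animals were female mice homozygous for an Lmna allele with loxP sites around exons 10 and 11 (Lmna fl/fl). Control mice lacked Cre, and LmnaADKO mice carried Adipoq-Cre, which is active in adipocytes and not in hepatocytes. At the start the mice were 12 to 14 weeks old. They were housed at 22°C, had eaten a high-fat diet (60% fat) for 4 weeks before they were injected with an AAV8 vector for FGF21 or with vehicle, and were euthanized 8 weeks later. The groups were 7 vehicle-treated controls, 3 FGF21-treated controls, 6 vehicle-treated LmnaADKO mice, and 8 FGF21-treated LmnaADKO mice, with 1 library per mouse. The labels call the treatment a rescue, which was read as FGF21 from the study's account of its liver samples.

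Acyl-CoA thioesterases split acyl-CoA into a free fatty acid and coenzyme A, and so work against the acyl-CoA synthetases. Type I enzymes share an alpha/beta-hydrolase fold, and type II enzymes share a hotdog fold. In the mouse, ACOT1 is cytosolic, ACOT2 lies in the mitochondrial matrix, and ACOT3, ACOT4, and ACOT5 are peroxisomal. Of the type II enzymes, ACOT7 and ACOT12 are cytosolic, ACOT8 is peroxisomal, ACOT9 is mitochondrial, and ACOT13 associates with mitochondria and also occurs in cytosol. In liver, several type I genes are known to be induced by fasting and by ligands of PPARalpha.

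The type I genes lie next to each other on the plus strand of mouse chromosome 12, in the order Acot2, Acot1, Acot4, Acot3, Acot5, and Acot6, within chr12:83987861-84111349 (GRCm38, GENCODE M21). Their similarity bears on how reads can be told apart, so 90 coding bases of each type I member are shown here, aligned to Acot1, with capitals marking the bases that differ from Acot1. The stretch starts at coding base 586 of Acot1, Acot4, and Acot5, base 709 of Acot2, and base 619 of Acot3.
Acot1: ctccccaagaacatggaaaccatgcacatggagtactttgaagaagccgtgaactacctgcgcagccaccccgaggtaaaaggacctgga
Acot2: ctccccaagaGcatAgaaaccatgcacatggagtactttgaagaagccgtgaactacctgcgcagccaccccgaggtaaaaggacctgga
Acot3: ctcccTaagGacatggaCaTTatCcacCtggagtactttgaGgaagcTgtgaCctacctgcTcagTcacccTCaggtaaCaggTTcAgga
Acot4: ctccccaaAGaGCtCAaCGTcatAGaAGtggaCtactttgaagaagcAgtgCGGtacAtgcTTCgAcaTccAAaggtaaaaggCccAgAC
Acot5: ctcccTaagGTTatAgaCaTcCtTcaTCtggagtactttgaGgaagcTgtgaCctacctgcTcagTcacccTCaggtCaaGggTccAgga
Within this stretch, Acot2 differed from Acot1 at 2 bases, Acot3 at 18, Acot5 at 22, and Acot4 at 30. Over the whole coding sequence, Acot1 and Acot2 matched at 95.2% of 1239 aligned bases. The other pairs among Acot1 to Acot5 matched at 75.2% to 85.8%. Of all stretches of 100 bases in a transcript, 21.9% of those of Acot1, 17.1% of Acot2, 14.3% of Acot3, 8.32% of Acot5, and 0.36% of Acot4 also occurred in a transcript of another gene. The stretches that Acot1 shared were mostly with Acot2 (359 of 476), and those of Acot3 were mostly with Gm49366 (330 of 478). Gm49366 is a protein-coding gene on the same strand that overlaps 396 exonic bases of Acot3 and 33 of Acot4. It has no row among the deposited counts. How the deposited counts divide reads from such stretches is not known, and the levels of Acot1 and Acot2 are therefore uncertain singly. Acot7, Acot8, Acot12, and Acot13 shared no such stretch, and Acot9 shared 0.968%, with Acot10. Acot3 and Acot4 also overlap 312 and 615 exonic bases of the antisense gene 4732463B04Rik, which had 1021 counts in all libraries together, against 86886 for Acot3 and 68221 for Acot4. Acot8 overlaps 246 exonic bases of Snx21 on the opposite strand, which had 6047 counts, against 11310 for Acot8. Acot12 overlaps 149 exonic bases of the antisense gene 4833422C13Rik, which had 531 counts, against 64540 for Acot12. The libraries mark strand, but the strand setting of the counting is not given in the sources used here.

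The window from 250 bases before to 50 bases after the gene start was read from RefSeq (GRCm38.p6) for 9 of the 10 members, all but Acot13. A direct repeat of AGGNCA with any 1 base between its copies, the kind of element that PPARalpha binds with RXR, was in 0 of these 9 genes' windows on either strand, and in 0.381% of all 32851 windows. A search for the single hexamer AGGTCA, added after this result, matched windows of 4 of the 9 members on 1 strand or the other (Acot3, Acot4, Acot5, and Acot12), against 16.3% of all windows. Members were counted as genes, some with more than 1 window, and the share is of single windows. The figures are therefore not on the same scale and were not tested. The hexamer is contained in some forms of the repeat, and a match is only a match of letters. The windows of Acot3 and Acot4 are printed because these neighboring genes varied together among mice, with the hexamer in capitals (as TGACCT, its reverse complement). It begins 18 bases after the start of Acot3 and 13 bases before that of Acot4. A second RefSeq window of Acot3, which starts 7 bases further on, holds the same match.
Acot3 (GRCm38.p6, chr12:84051894-84052193, plus strand): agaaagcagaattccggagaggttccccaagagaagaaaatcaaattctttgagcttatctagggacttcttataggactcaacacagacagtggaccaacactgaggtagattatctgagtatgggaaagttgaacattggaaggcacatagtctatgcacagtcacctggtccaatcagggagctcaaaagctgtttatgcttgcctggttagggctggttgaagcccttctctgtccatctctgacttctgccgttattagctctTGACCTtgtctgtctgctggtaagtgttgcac
Acot4 (GRCm38.p6, chr12:84038129-84038428, plus strand): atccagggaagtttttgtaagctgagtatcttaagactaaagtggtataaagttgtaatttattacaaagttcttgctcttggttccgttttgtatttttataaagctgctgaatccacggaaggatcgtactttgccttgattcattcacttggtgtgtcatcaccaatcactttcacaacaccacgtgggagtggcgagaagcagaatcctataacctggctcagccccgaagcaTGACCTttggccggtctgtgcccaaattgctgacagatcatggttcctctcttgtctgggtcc

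Libraries held between 19863304 and 21510054 counts on genes. Levels are given as CPM, counts relative to the library size as scaled by the TMM method, and levels of different genes are compared only as RPKM, which is CPM per kilobase of merged exon. Differences are log2 fold changes of edgeR's quasi-likelihood test with Benjamini-Hochberg adjustment over all 23972 genes, given with the SE, and a gene was called when its adjusted p was under 0.05 and its fold change above 1.5. By this rule 8.48% of genes were called between genotypes with vehicle, 2.88% between genotypes with FGF21, 0.0542% for FGF21 in controls, and 0% for FGF21 in LmnaADKO mice. Fgf21 itself was at 1.9 to 10.8 CPM in vehicle-treated controls, 3.14 to 7.4 in FGF21-treated controls, 4.63 to 10.6 in vehicle-treated LmnaADKO mice, and 2.19 to 9.99 in FGF21-treated LmnaADKO mice, so its counts did not set the treated groups apart. Lmna was not lower in LmnaADKO liver (15.7 to 22.1 CPM in vehicle-treated controls and 23.6 to 31 in vehicle-treated LmnaADKO mice). With vehicle it was higher, with a log2 fold change of 0.52 ± 0.121 (adjusted p = 0.00322, edgeR), under the fold threshold and so not called. The library numbers in the labels have 3 digits in 6 of 7 vehicle-treated controls and in 1 of 6 vehicle-treated LmnaADKO mice, so this numbering is largely confounded with genotype. It is also confounded with treatment in controls, since the 3 FGF21-treated controls all have 4-digit numbers. The part of the number series in differences between these groups was not tested beyond the values given with the series as a covariate. In 3 libraries, vehicle-treated control 3, FGF21-treated control 3, and FGF21-treated LmnaADKO 7, the level fell most steeply with gene length. These are called steep libraries below. The length slope was that of log2 CPM, less the median of the libraries of the same genotype, on log2 exonic length over 9694 genes.

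All members but Acot5 were expressed in liver. By RPKM, Acot3 and Acot13 led in vehicle-treated controls, at 79.3 ± 34.0 and 78.9 ± 15.5 RPKM (SD, n = 7), and Acot3 was above Acot13 in 3 of 7 libraries, so that neither stood above the other. Acot12 followed at 41.6 ± 4.76, below Acot13 and above Acot4 in every library. Acot4 (23.2 ± 5.25) and Acot1 (21.9 ± 11.9) overlapped, as did Acot8 (11.8 ± 2.11), Acot7 (9.81 ± 1.99), and Acot2 (8.01 ± 3.39). This order and the shares below depend on the length used. Merged exons are longer than the transcript whose stretches were compared above for Acot1 (3919 against 2272 bases) and Acot8 (1997 against 1152). For Acot2 both are 2196. Acot9 was lower than these, at 1.9 ± 0.385 RPKM, and Acot5 was at 0.0233 ± 0.0245. The genes at the top of this order encode a peroxisomal enzyme of long-chain acyl-CoA (Acot3), a mitochondria-associated enzyme (Acot13), and the cytosolic acetyl-CoA hydrolase of liver (Acot12).

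In vehicle-treated LmnaADKO mice the order differed, with Acot13 first at 94.7 ± 8.23 RPKM (n = 6) and above Acot12 (36.2 ± 5.71) in every library. Acot3 was at 25.5 ± 15.3 and overlapped both Acot12 and Acot4 (18.6 ± 7.11). Acot3 made up 27.8% ± 8.13 of the summed RPKM of the 10 genes in vehicle-treated controls (19.1% to 37.4%) and 10.7% ± 5.1 in vehicle-treated LmnaADKO mice (4.84% to 17.9%), and these ranges did not overlap. Acot13 made up 28.8% ± 4.61 and 42.8% ± 6.46, with ranges of 21.2% to 35.7% and 34.4% to 49.2%. Since shares add up to a fixed total, a lower share of Acot3 by itself makes the others' shares higher. The summed RPKM was 276 ± 48.5 in vehicle-treated controls, 317 ± 132 in FGF21-treated controls (n = 3), 225 ± 33.8 in vehicle-treated LmnaADKO mice, and 237 ± 35.0 in FGF21-treated LmnaADKO mice (n = 8), with overlap between all groups.

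**Figure D1:**
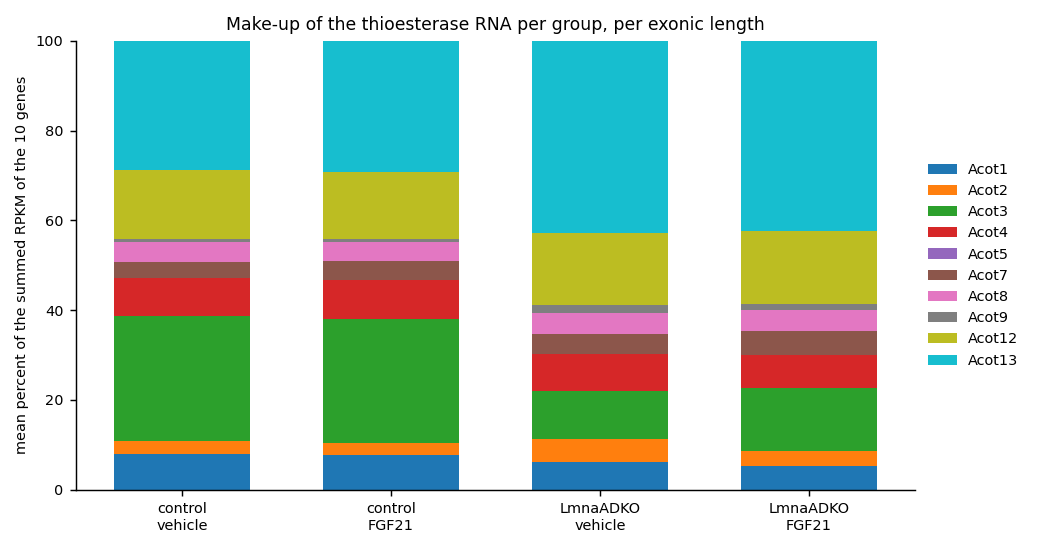
Stacked bars give each gene's mean percent (vertical axis) of the summed RPKM of the 10 members in each of the 4 groups (horizontal axis). Acot3 takes 27.8% in vehicle-treated controls and 10.7% in vehicle-treated LmnaADKO mice, and Acot13 takes 28.8% and 42.8%.

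With vehicle, 3 of the 10 members were called between genotypes, Acot3 lower and Acot9 and Acot5 higher in LmnaADKO mice, beside 8.48% of all genes (5.12% higher and 3.36% lower) and 11.7% of the 12492 expressed genes, meaning those whose mean log2 CPM was 0 or above. Acot5 was at or near 0 counts, so that the calls of expressed members were Acot3 and Acot9, 2 of 9. The median log2 fold change of the 10 members was −0.09, with 5 above and 5 below 0, and that of all genes was 0.00. The family thus did not move in 1 direction.

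**Figure D2:**
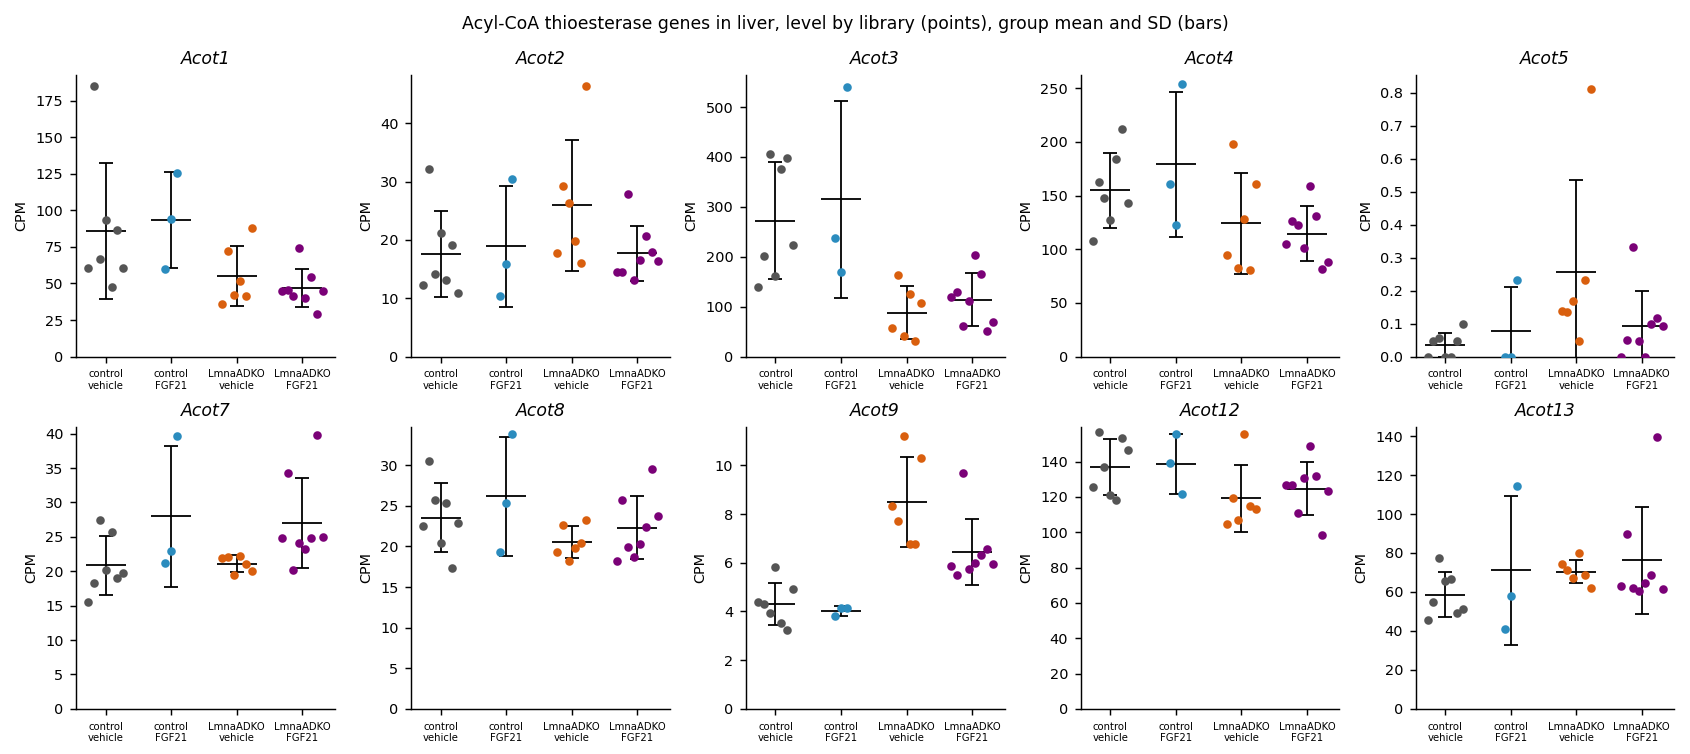
Each panel plots 1 gene, with CPM on the vertical axis from 0 and the 4 groups on the horizontal axis, where points are libraries and bars are the group mean ± SD (where the SD passes 0 it is cut by the axis). Acot9 is between 3.26 and 5.85 CPM in vehicle-treated controls and between 6.76 and 11.2 in vehicle-treated LmnaADKO mice, and Acot3 is lower in most LmnaADKO libraries, with overlap.

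Among the type I members, Acot3, a peroxisomal thioesterase of long-chain acyl-CoA, fell the most. In vehicle-treated controls its lowest, median, and highest library were at 138, 224, and 406 CPM, and in vehicle-treated LmnaADKO mice at 31.5, 82.2, and 164 CPM. Of the 6 LmnaADKO libraries, 5 were below every control library, and replicate 2, at 164 CPM, was above 2 of them. The log2 fold change was −1.63 ± 0.433 (SE), 3.1-fold lower, with an adjusted p of 0.0128 in edgeR's test. It was called under each of the other settings run for this contrast, with values of −1.91 to −1.46. Within the libraries with 3-digit numbers, the 1 LmnaADKO library was at 56.4 CPM and the 6 control libraries at 138 CPM or more. Within those with 4-digit numbers, the 1 control library was at 224 CPM and the 5 LmnaADKO libraries at 31.5 to 164.

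Some hepatocyte markers were also lower in LmnaADKO liver. Of 6 such genes, Cps1 and Cyp2e1 were called lower with vehicle and 0 were called higher. Serpinc1, Apoa1, and Alb were not called, with log2 fold changes of −0.47, −0.36, and −0.33, nor was Ttr, at 0.04. The summed CPM of the list was 82200 to 142000 in vehicle-treated controls and 69900 to 106000 in vehicle-treated LmnaADKO mice, with overlap. In bulk liver RNA, fewer cells of a type and less RNA per cell cannot be told apart, and the part of this in the values of Acot3 was not tested.

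Acot4, which encodes a peroxisomal thioesterase of succinyl-CoA and other dicarboxylyl-CoA esters and lies directly before Acot3, was at 108, 148, and 212 CPM (lowest, median, highest) in vehicle-treated controls and at 80.9, 111, and 198 in vehicle-treated LmnaADKO mice. These ranges overlapped, and the log2 fold change of −0.32 ± 0.213 was not called (adjusted p = 0.351, edgeR). Its cytosolic relative Acot1, known as an inducible thioesterase of long-chain acyl-CoA, was at 47.5, 66.7, and 185 CPM in controls and at 35.8, 47.0, and 87.8 in LmnaADKO mice, with a log2 fold change of −0.64 ± 0.29 (adjusted p = 0.156, edgeR). The highest control library, replicate 2, weighed on this value, which was −0.33 without it. Acot2, the mitochondrial enzyme whose coding sequence is closest to that of Acot1, lay the other way, at 10.9, 14.2, and 32.2 CPM in controls and at 16.0, 23.1, and 46.5 in LmnaADKO mice, and its log2 fold change of 0.56 ± 0.287 was not called either (adjusted p = 0.218, edgeR). Without LmnaADKO replicate 6, its highest library, the value for Acot2 was 0.31.

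Since Acot1 and Acot2 share stretches, their counts were also summed. Together they were at 60.7 to 217 CPM in vehicle-treated controls and at 53.6 to 134 in vehicle-treated LmnaADKO mice, with a log2 fold change of −0.35 ± 0.271. The sum of Acot1 to Acot5 was at 319 to 717 CPM and 170 to 463 CPM, with a log2 fold change of −0.86 ± 0.261, and Acot3 and Acot4 held most of its counts in every group. Acot5, a peroxisomal enzyme of medium-chain acyl-CoA, had 0 to 2 counts in each vehicle-treated control library, under the floor of 3 counts, and 1, 3, 3, 4, 5, and 19 counts in the vehicle-treated LmnaADKO libraries. Relative to the total counts of the libraries, this was 8.2 times the control level (35 against 5 counts, 95% exact interval 3.2 to 26.8), and without LmnaADKO replicate 6, which alone had 19 counts, it was 4.51 times (16 against 5 counts, 1.58 to 15.8). These intervals cover counting error only. Acot5 was called in the fit (adjusted p = 0.023, edgeR) but not without that library, and it shares 8.32% of its 100-base stretches with other genes, mostly Acot3.

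Ratios within a library do not depend on its scaling, and they are given here as a description, since they were chosen after the values had been seen. The count ratio of Acot1 to Acot2 was 3.6, 4.7, and 5.75 (lowest, median, highest) in vehicle-treated controls and 1.61, 2.23, and 2.61 in vehicle-treated LmnaADKO mice, with no overlap. The ratio of Acot3 to Acot4 was 1.24, 1.56, and 2.74 in controls and 0.39, 0.635, and 0.978 in LmnaADKO mice, again with no overlap. With vehicle, each LmnaADKO library thus held fewer counts of Acot3 than of Acot4, while each control library held more. Both genes overlap exons of Gm49366, whose part in this ratio was not tested. With FGF21, the ratio of Acot3 to Acot4 was 1.38, 1.47, and 2.13 in the 3 control libraries and 0.506 to 1.27 in the 8 LmnaADKO libraries, without overlap, whereas that of Acot1 to Acot2 was 4.12, 5.82, and 5.92 in controls and 1.48 to 5.6 in LmnaADKO mice, where 7 of 8 libraries were below every control. The other 4 pairs among Acot1 to Acot4 overlapped between genotypes with vehicle. How many pairs of other genes stand apart in this way was not computed. The counts of Acot1 and Acot2 are uncertain singly, and so is their ratio. The steep control libraries had the highest ratios of Acot3 to Acot4 of their groups, 2.74 with vehicle and 2.13 with FGF21. The steep LmnaADKO library was at 0.62.

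**Figure D3:**
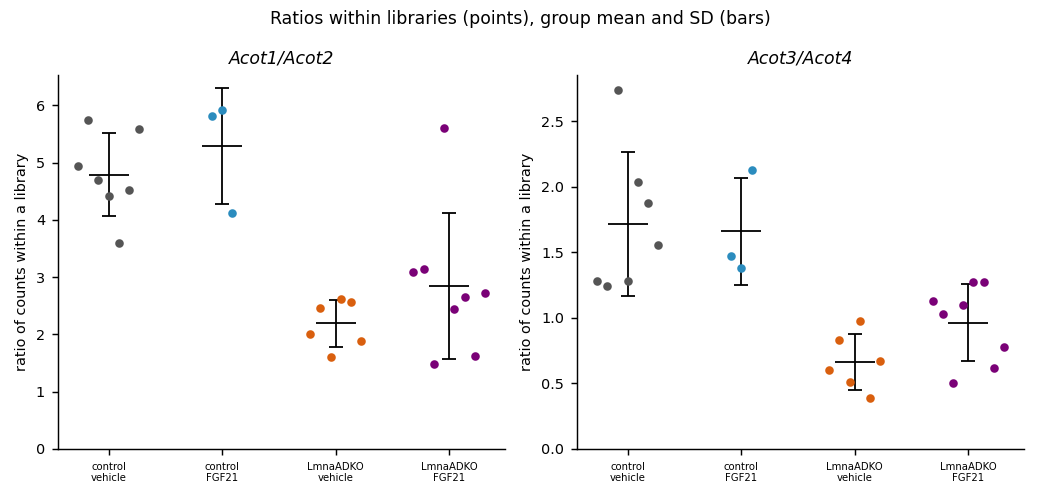
The ratio of counts of Acot1 to Acot2 (left) and of Acot3 to Acot4 (right) within each library is on the vertical axis, for the 4 groups on the horizontal axis, where points are libraries and bars are the mean ± SD. With vehicle, the LmnaADKO libraries reach 2.61 and 0.978, below the lowest control libraries at 3.6 and 1.24.

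Acot9 was the member with the smallest adjusted p. It lies on the X chromosome (chrX:155262443-155297654, plus strand, GRCm38) and encodes a mitochondrial type II thioesterase. Its level in vehicle-treated controls was 3.26, 4.31, and 5.85 CPM (lowest, median, highest), and in vehicle-treated LmnaADKO mice 6.76, 8.02, and 11.2 CPM. All 6 LmnaADKO libraries were above all 7 control libraries, and 13.9% of expressed genes did not overlap between these groups. The log2 fold change was 0.98 ± 0.151, 1.97-fold higher (adjusted p = 3.94e-05, edgeR), and Acot9 was called under each other setting run for this contrast, with values of 0.88 to 1.07. The 1 LmnaADKO library with a 3-digit number was at 8.33 CPM, above the 6 controls of that series (3.26 to 5.85), and the 1 control with a 4-digit number was at 4.92, below the 5 LmnaADKO libraries of that series (6.76 to 11.2). These levels rest on 67 to 127 counts per control library and 139 to 268 per LmnaADKO library, the fewest of the expressed members.

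Markers of some other liver cell types were also higher in LmnaADKO liver with vehicle, and those of others were not. The summed CPM of 6 cholangiocyte genes was 27.1 to 51.2 in vehicle-treated controls and 85.8 to 196 in vehicle-treated LmnaADKO mice, where 2 of 6 were called higher (Spp1 and Cftr). Spp1, at a mean of 32.7 and 116 CPM, held most of this sum, and Krt19, Krt7, Epcam, and Sox9 were not called. That of 7 stellate cell and myofibroblast genes was 219 to 313 and 296 to 433, with 3 of 7 called higher (Lrat, Col3a1, and Acta2). Des and Reln of this list lay lower, with log2 fold changes of −0.27 and −0.20, and were not called. Of 6 endothelial genes, Lyve1 was called higher, and the sum was 217 to 273 and 207 to 262. Not called were Stab2, Clec4g, and Kdr, which lay lower (−0.30, −0.42, and −0.27), and Pecam1 and Cdh5, which lay higher (0.30 and 0.17). Of 8 macrophage genes, 0 were called. Marco, Timd4, Clec4f, Csf1r, and Adgre1 lay lower (−1.24, −0.89, −0.53, −0.24, and −0.01). Cd68, Ptprc, and Lyz2 lay higher (0.13, 0.07, and 0.04). The adipocyte genes Adipoq, Lep, and Plin1 were at 0 in 15, 23, and 16 of 24 libraries, and the sum of 5 such genes was at most 3.95 CPM in any library. In both LmnaADKO groups the library with the highest Acot9, vehicle replicate 3 at 11.2 CPM and FGF21 replicate 3 at 9.7 CPM, also had the highest cholangiocyte sum of its group (196 and 242 CPM). In the vehicle-treated controls this was not so. The library highest in Acot9 there, replicate 4 at 5.85 CPM, had a sum of 33.4, within its group's 27.1 to 51.2. In the FGF21-treated controls, replicates 2 and 3 were nearly level in Acot9 (4.145 and 4.134 CPM). Replicate 2 had the lowest sum of its group (32.3 CPM) and replicate 3 the highest (38.5 CPM). The most abundant genes of these lists were Spp1, Dcn, Stab2, Clec4f, and Cfd, and of the hepatocyte list Alb. The part of other cell types in the values of Acot9 was not tested.

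The other type II members were not called with vehicle. Acot12, the cytosolic acetyl-CoA hydrolase (chr13:91741512-91786148, plus strand), was at 118, 137, and 157 CPM in controls and at 105, 114, and 156 in LmnaADKO mice, where 4 of 6 libraries were below every control and replicate 4 was near the highest of them. Its log2 fold change was −0.20 ± 0.109 (adjusted p = 0.244, edgeR). Acot8, the peroxisomal type II enzyme (chr2:164792765-164804882, minus strand), was at 17.4, 22.8, and 30.5 CPM in controls and at 18.2, 20.1, and 23.3 in LmnaADKO mice (log2 fold change −0.19 ± 0.132, adjusted p = 0.369, edgeR), all within the control range. Acot7, best known from brain (chr4:152178134-152271855, plus strand), was at 15.5, 19.7, and 27.4 CPM and at 19.4, 21.5, and 22.2 CPM (log2 fold change 0.02 ± 0.153, adjusted p = 0.989, edgeR), again within the control range. Acot13, whose product binds phosphatidylcholine transfer protein (chr13:24817948-24831540, minus strand), was at 45.6, 54.9, and 77.4 CPM and at 62.2, 69.7, and 79.8 CPM (log2 fold change 0.26 ± 0.204, adjusted p = 0.448, edgeR). Without the 3 steep libraries its value was 0.35 ± 0.108 (adjusted p = 0.0221, edgeR), and with the length slope as a covariate 0.28 ± 0.0662 (adjusted p = 0.0022, edgeR), both under the fold threshold and so not called. The slope is relative to the median of each genotype, so this covariate cannot carry a length dependence that all libraries of a genotype share. A p above the threshold does not show that the groups were alike.

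**Figure D4:**
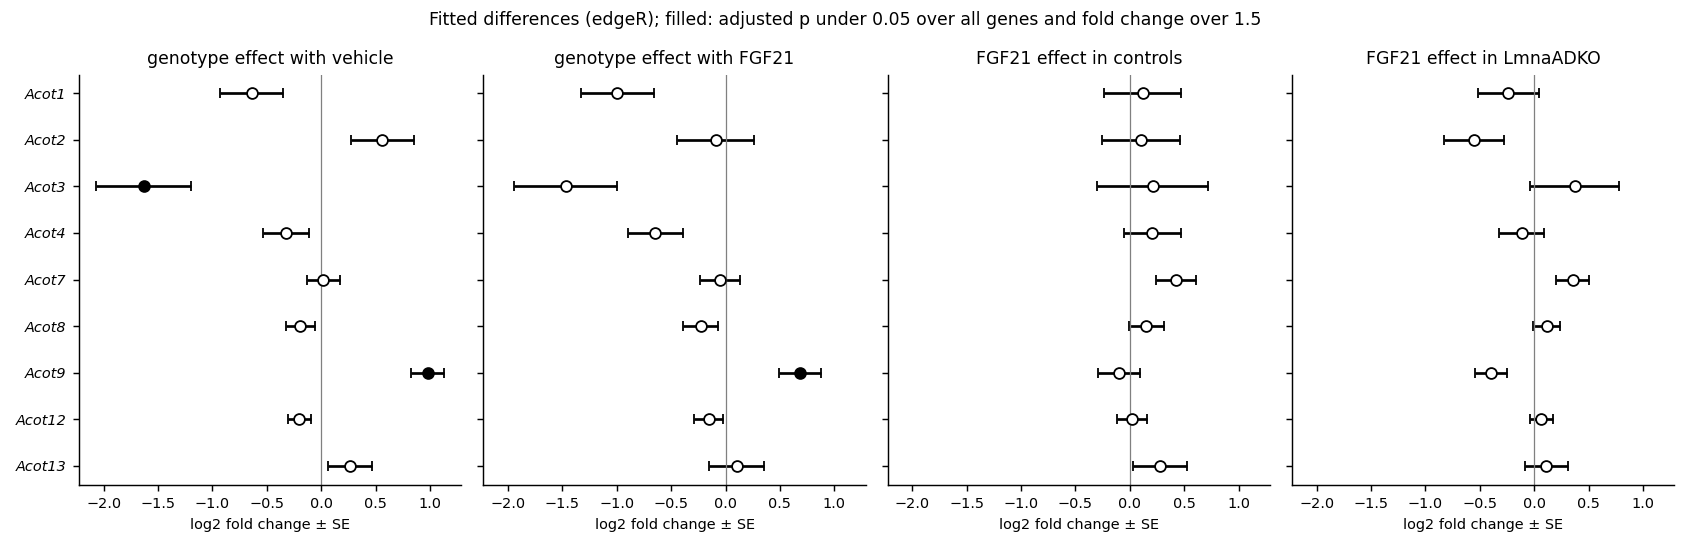
Log2 fold changes with their SE (horizontal axis) are plotted for 9 members (vertical axis, Acot5 left out for its low counts) in 4 contrasts, with filled symbols for calls. Acot3 (−1.63) and Acot9 (0.98) are filled between genotypes with vehicle, Acot9 (0.68) between genotypes with FGF21, and no member is filled for FGF21 against vehicle.

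In each group with a steep library, that library held the highest Acot13 and Acot7. Acot13 has the shortest merged exon length of the members, 744 bases. Acot7, at 2124 bases, is longer than Acot8, at 1997. The part of gene length in the levels of Acot7 was not tested beyond the values with the length slope as a covariate. Slopes of log2 CPM on log2 length were taken relative to the genotype median. The 3 steep libraries had slopes of −0.154 (vehicle-treated control 3), −0.289 (FGF21-treated control 3), and −0.331 (FGF21-treated LmnaADKO 7). Each held the highest Acot13 of its group, at 77.4, 114, and 139 CPM, where the others of these groups reached 66.8, 58.0, and 90. Each also held the highest Acot7 of its group, at 27.4, 39.7, and 39.8 CPM, against 25.8, 23.0, and 34.3 for the next. With FGF21, the value of Acot13 between genotypes was 0.10 in all libraries, 0.45 without the steep ones (adjusted p = 0.13, edgeR), and 0.29 with the length slope as a covariate (adjusted p = 0.0261, edgeR), again not called. The covariate has the limit given above for the contrast with vehicle. Acot3 held no such shared position, since it was the highest of its group in both control libraries (406 and 540 CPM) and the lowest in the LmnaADKO library (50.6 CPM).

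**Figure D5:**
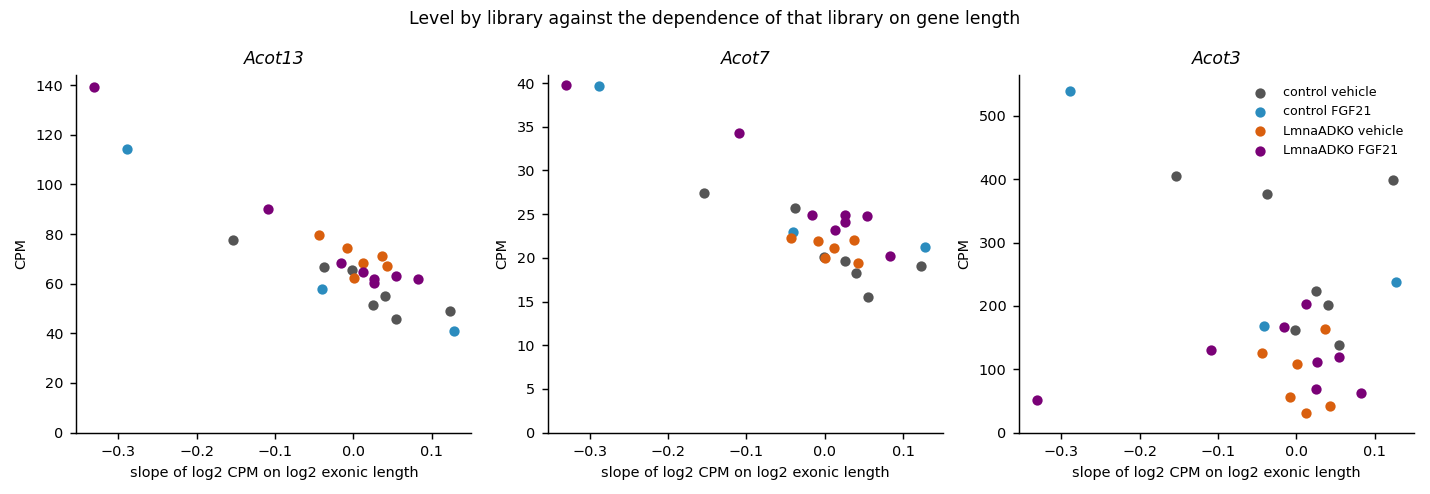
CPM of Acot13, Acot7, and Acot3 (vertical axes) is plotted against the slope of log2 CPM on log2 exonic length (horizontal axis) for all 24 libraries, colored by group. The slope is relative to the median of the libraries of the same genotype. The 3 libraries with slopes of −0.331, −0.289, and −0.154 have 139, 114, and 77.4 CPM of Acot13.

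With FGF21, 1 of 10 members was called between genotypes, Acot9, beside 2.88% of all genes and 4.72% of expressed genes. Acot9 was at 3.8, 4.14, and 4.13 CPM in the 3 FGF21-treated controls and at 5.48, 5.97, and 9.7 CPM (lowest, median, highest) in the 8 FGF21-treated LmnaADKO mice, so the genotypes did not overlap, as for 8.56% of expressed genes. The log2 fold change was 0.68 ± 0.194, 1.61-fold higher (adjusted p = 0.0423, edgeR), just past the threshold. Its value stayed between 0.57 and 0.71 under the other settings, but the call was lost in the fit of only these groups, with the number series as a covariate, without the 3 steep libraries, among 4-digit numbers alone, and without any 1 of FGF21-treated controls 1, 2, and 3 or FGF21-treated LmnaADKO 3, 5, and 6, with adjusted p between 0.0507 and 0.265. The cholangiocyte sum was 32.3 to 38.5 CPM in FGF21-treated controls and 50.4 to 242 in FGF21-treated LmnaADKO mice, with 0 of 6 genes called. The genotype contrasts with vehicle and with FGF21 share no libraries.

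Acot3 was at 169, 237, and 540 CPM in the FGF21-treated controls and at 50.6, 115, and 203 CPM (lowest, median, highest) in the FGF21-treated LmnaADKO mice, where 7 of 8 libraries were below every control. The log2 fold change was −1.47 ± 0.477 and was not called (adjusted p = 0.0916, edgeR), and without FGF21-treated control 3, the library at 540 CPM, it was −0.84. DESeq2 called it (adjusted p = 0.0313), as did edgeR on genes kept by its filter on low counts (adjusted p = 0.0428). Acot1 was at 60, 94.3, and 126 CPM in these controls and at 28.8, 44.6, and 74.0 CPM in the LmnaADKO mice, 7 of 8 below every control, with a log2 fold change of −0.997 ± 0.335 (adjusted p = 0.104, edgeR). It was called by DESeq2 (adjusted p = 0.0289) and in the fit of only these groups (adjusted p = 0.0466). Both values rest partly on steep libraries, since without the 3 of them the log2 fold change was −0.72 for Acot3 and −0.64 for Acot1. Acot4 was at 122, 161, and 254 CPM in these controls and at 81.7, 114, and 159 CPM in the LmnaADKO mice, and its value was −0.65 ± 0.25 (adjusted p = 0.167, edgeR), with 4 of 8 LmnaADKO libraries below every control. Without FGF21-treated control 3, the library at 254 CPM, it was −0.31, and without the 3 steep libraries −0.24. The sum of Acot1 to Acot5 was 401 to 950 CPM in controls and 179 to 419 in LmnaADKO mice, with a log2 fold change of −1.05 ± 0.298. Without FGF21-treated control 3, which held the 950 CPM, this was −0.58 ± 0.327, and without the 3 steep libraries −0.49 ± 0.341. For Acot2, Acot7, Acot8, Acot12, and Acot13, log2 fold changes were −0.09, −0.05, −0.23, −0.16, and 0.10, with adjusted p of 0.484 or more, and for Acot5 the counts were 16 in 8 LmnaADKO libraries against 4 in 3 controls.

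FGF21 against vehicle gave 0 calls among the members in controls and 0 in LmnaADKO mice, by edgeR and by DESeq2, and the interaction of genotype and treatment also gave 0. Of all genes, 0.0542% were called in controls, 0% in LmnaADKO mice, and 0.00417% in the interaction. For 0 members did the treated and untreated libraries stand apart without overlap in either genotype, beside 2.07% of expressed genes in controls and 0.112% in LmnaADKO mice. At an unadjusted p under 0.05 there were 1 member in controls (Acot7), 3 in LmnaADKO mice (Acot5, Acot7, and Acot9), and 0 in the interaction, beside 6.16%, 6.71%, and 4.86% of all genes. Acot7 in controls had a log2 fold change of 0.42 ± 0.187, which was 0.08 ± 0.193 without FGF21-treated control 3, the steep library at 39.7 CPM, and 0.40 ± 0.23 with the number series as a covariate. Acot9 in LmnaADKO mice was at 6.76 to 11.2 CPM with vehicle and 5.48 to 9.7 with FGF21, where 7 of 8 libraries were below every vehicle library, and the log2 fold change was −0.40 ± 0.144 (adjusted p = 0.696, edgeR). Acot7 was at 19.4 to 22.2 CPM with vehicle and 20.2 to 39.8 with FGF21, 7 of 8 above every vehicle library (0.35 ± 0.149, adjusted p = 0.704, edgeR, and 0.25 ± 0.101 without the steep libraries). Acot3 had a log2 fold change for FGF21 of 0.37 ± 0.408 in LmnaADKO mice and 0.21 ± 0.511 in controls. The genotype effects on Acot3 and Acot9 were not shown to differ with treatment, since their interactions were 0.16 ± 0.658 and −0.30 ± 0.241 on the log2 scale (adjusted p = 1 for both, edgeR).

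To see which genes varied like the members among mice of the same group, log2 CPM was taken as the deviation from the group mean over the 24 libraries, and all 12492 expressed genes were searched. These correlations describe 24 libraries that also share differences in RNA and depth, and no p is given. Acot3 and Acot4, neighbors on chromosome 12, were each other's closest gene (Pearson r = 0.879, Spearman rho = 0.863, and r = 0.882 without the 3 steep libraries). The part of Gm49366, which overlaps exons of both, in this correlation was not tested. Acot1 and Acot2 had an r of 0.688, and Acot1 and Acot3 of 0.32. The closest genes to Acot1 were Chrna2 (0.878), Hadhb (0.845), and Slc25a20 (0.816), and those to Acot2 were Hadha (0.813), Gins2 (0.769), and Hadhb (0.763). Hadha and Hadhb encode the mitochondrial trifunctional protein of fatty acid oxidation, and Slc25a20 the carnitine-acylcarnitine carrier. After Acot4, Acot3 was closest to Dnajb6 (0.85) and Slc46a3 (0.847). Naa60 was also among the genes closest to Acot4 (0.862).

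Acot9 was closest to Rragd (0.857), Cd93 (0.851), and Myh10 (0.834), and Acot12 to Fech (0.882), Ppm1a (0.874), and Dcaf8 (0.853). Acot8 was closest to Psmc4 (0.863), Tbcb (0.854), and Ncln (0.853). Acot13 was closest to Uqcr11 (0.979), Atp5o (0.976), and Atp5j2 (0.97), subunits of the respiratory chain and ATP synthase, and Acot7 to Ndufb10 (0.944), Ptms (0.939), and Cyc1 (0.934). Without the 3 steep libraries these were 0.938, 0.905, and 0.894 for Acot13 and 0.881, 0.833, and 0.812 for Acot7, and the r between Acot13 and Acot7 was 0.921 with and 0.794 without them.

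Of 7 other genes of thioesterases or of the same folds, 2 were called between genotypes with vehicle, both higher in LmnaADKO mice, beside 8.48% of all genes. Acot11, a thioesterase with a lipid-binding START domain, was at 5.64, 10.1, and 23.7 CPM (lowest, median, highest) in controls and at 16.9, 24.3, and 38.8 in LmnaADKO mice, with overlap (log2 fold change 1.09 ± 0.281, adjusted p = 0.0103, edgeR). Them6, whose product has a thioesterase domain, was at 2.86, 3.98, and 5.46 CPM and at 6.52, 7.37, and 11.1 CPM without overlap (0.999 ± 0.196, adjusted p = 0.000687, edgeR), and was also called with FGF21 (0.89 ± 0.254, adjusted p = 0.0429, edgeR). Acot6, the last type I gene of the chromosome 12 row, was at 2.75 to 4.56 and 2.82 to 6.88 CPM with vehicle (0.28 ± 0.207, adjusted p = 0.422, edgeR). Acot10, a close copy of Acot9 (97.2% of 1320 coding bases), had 0 counts in every control library and at most 2 in any library. Them5 had at most 5 counts. Baat, which conjugates bile acids and shares the type I fold, and Them4 were not called (−0.13 ± 0.109 and 0.08 ± 0.116).

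The pathways around the thioesterases were read by lists that had been set with earlier results known, beside 8.48% of all genes called with vehicle and 15.1% with an adjusted p under 0.05 at any fold. Of 20 peroxisomal acyl-CoA genes, 2 rose and 0 fell, with a median log2 fold change of 0.11 beside 0.00 over all genes. The 2 were Scp2, the sterol carrier and thiolase gene (from a mean of 2405 to 4029 CPM, 0.74 ± 0.106, adjusted p = 1.5e-05, edgeR), and Pex11a, which acts in peroxisome division (from 105 to 208 CPM, 0.99 ± 0.16, adjusted p = 7.27e-05, edgeR). With an adjusted p under 0.05 but under the fold threshold were 3 more, Hsd17b4 of peroxisomal beta-oxidation, at 0.53 ± 0.0941 (adjusted p = 0.000248, edgeR), and Slc27a2, a very-long-chain acyl-CoA synthetase, and Amacr, an acyl-CoA racemase, at −0.58 ± 0.113 and −0.55 ± 0.105 (adjusted p = 0.00064 and 0.000539, edgeR). Of 17 genes of mitochondrial fatty acid oxidation, 0 were called by edgeR, with 1 at an adjusted p under 0.05 (Etfb, −0.55 ± 0.16, under the fold threshold) and a median of −0.04. Of 22 textbook targets of PPARalpha, Pex11a and Aldh3a2, a fatty aldehyde dehydrogenase (0.59 ± 0.133, adjusted p = 0.00232, edgeR), rose, and Cyp4a10, a fatty acid omega-hydroxylase, fell (from a mean of 1175 to 570 CPM, −1.04 ± 0.209, adjusted p = 0.000939, edgeR), with a list median of 0.15. Creb3l3, a liver transcription factor gene, had an adjusted p of 0.00998 (edgeR) at −0.43 ± 0.114, under the fold threshold. Of 11 genes of CoA synthesis and breakdown, 0 were called by edgeR or DESeq2, with a median of 0.05. The log2 fold change of Acot3, −1.63, was lower than the lowest among these 4 lists, −1.04 for Cyp4a10.

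With FGF21, the calls between genotypes in these lists were Scp2 (0.74 ± 0.134) and Nudt7, a peroxisomal CoA diphosphatase (0.81 ± 0.173, adjusted p = 0.00631, edgeR), both higher, and Cyp4a10 (−0.99 ± 0.239) and Angptl4, a lipoprotein lipase inhibitor (−0.82 ± 0.211), both lower in LmnaADKO mice. For FGF21 against vehicle, 0 genes of the 5 lists were called by edgeR in either genotype.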

How the data were processed

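Liver RNA of 24 mice, 1 library each, was measured by RNA-Seq of polyA-selected, strand-marking libraries. The submitters' processing notes name cutadapt 4.8, FastQC 0.11.8, STAR 2.7.8a, RSEM 1.3.3, and GRCm38. The deposited values are whole-number counts per gene that the authors made from these reads, with genes at 0 in every library removed by the authors. Where RSEM counted, the values may be rounded estimates in which reads of near-identical copies were divided, which touches Acot1 and Acot2 most. All 23972 rows named a gene, and 0 columns of the file lacked a sample. The sequencing provider is given differently in the labels and in the study's methods, and the depth of 19863304 to 21510054 counts per library was taken from the file.

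Groups were taken from the labels. Counts were fitted in R 4.3.3 with edgeR 4.0.16 (TMM library sizes, robust quasi-likelihood test) and limma 3.58.1, all 24 libraries in 1 fit of the 4 groups, with Benjamini-Hochberg adjustment over all genes. The study's methods name DESeq2, which was run as an alternative (1.42.0). The SE was taken as the size of the log2 fold change over the root of its F statistic. The labels give separate animals, and the spread between them sets the p-values. The counts of library pairs within a group differed by more than sampling noise in all 67 pairs (chi-square per degree of freedom 14.1 to 196). On simulated counts of 23759 genes for the contrast between genotypes with vehicle, the fit called 85 of 100 genes changed by a fold of 2 and 96 of 100 changed by a fold of 3, with 7 false calls. The changed genes were drawn above a cutoff of level that Acot5 does not reach. The simulation used the spread estimated from these libraries and held no length slope or number series, so real recovery and false calls can differ. RPKM used merged exon lengths of GENCODE M21, for the same build. The floor of 3 counts was 0.139 to 0.151 CPM, and the exact interval of the Acot5 ratio covers counting error only.

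The members and gene lists were chosen with earlier results of these data known, and tests fitted over all genes are therefore no independent support for the members. Genes were named by a fixed rule: all members, the other thioesterase genes, up to 4 called genes with the largest change from each pathway list with vehicle, the most abundant gene of each marker list, and the 3 genes most like each member, of which 1 is not reported here. Other marker genes, Etfb, Hsd17b4, Slc27a2, Amacr, Creb3l3, Nudt7, and Angptl4 were named after their values were seen. Identity of proteins had been planned, and coding sequences of GENCODE transcripts were compared instead. Alternatives were another tool, other scaling, a filter on low counts, the adjusted p alone, only the groups compared, the number series or the length slope as a covariate, leaving out 3 steep libraries or each library in turn, and summed counts of similar members.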

Additional observations from a re-analysis of the deposited data

Results flagged for a closer look

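In 6 of the 30 groups of 4 to 10 libraries examined for the 10 members, the highest library stood far from the nearest of the others by Dixon's criterion, which chance alone meets in about 1 in 20 groups. Acot1 was at 185 CPM in vehicle-treated control replicate 2, where the next library was at 93.6. Acot12 was at 156 CPM in vehicle-treated LmnaADKO replicate 4, where the next was at 119. Acot13 was at 139 CPM in FGF21-treated LmnaADKO replicate 7, where the next was at 90, and this library had the steepest fall of level with gene length. Acot5 was at 0.812 CPM (19 counts) in vehicle-treated LmnaADKO replicate 6, where the next was at 0.231. FGF21-treated LmnaADKO replicate 3 stood out for both Acot5, at 0.332 CPM (8 counts) against 0.118, and Acot9, at 9.7 CPM against 6.58, and the same library had the highest summed cholangiocyte (242 CPM) and stellate cell markers (486 CPM) of its group.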

How the results depend on the processing

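The calls of Acot3 (−1.91 to −1.46) and Acot9 (0.88 to 1.07) between genotypes with vehicle kept their direction and stayed past the threshold under each alternative run. Where a value changed below, the cause was not tested. With vehicle, the count of genes called rose from 2033 to 3623 by adjusted p alone. Of the lists, PPARalpha targets gave 5 calls with DESeq2 and 5 with the filter on low counts, peroxisomal genes 5 by adjusted p alone and 5 with the number series as covariate, mitochondrial oxidation 1 in each of these (Etfb by adjusted p alone), and other thioesterases 1 with the number series. The counts of Acot1 and Acot2 summed gave −0.35 and those of Acot1 to Acot5 summed −0.86, below 0 where Acot2 alone was above 0 in each fit, and these are values of the sums, not of Acot2. Acot7 turned to −0.0016 with the number series. The call of Acot5 was lost without vehicle-treated LmnaADKO replicate 6 (1.89) and with the number series (2.48, adjusted p = 0.121, edgeR), and Acot5 was not tested after the filter on low counts.

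With FGF21, 690 genes were called between genotypes, against 344 in the fit of only these groups, 402 without the 3 steep libraries, and 148 among 4-digit numbers, an alternative chosen after seeing the data. Members called were 3 with DESeq2 (Acot1, Acot3, and Acot9), 2 with the filter on low counts, and 0 with the number series, without the steep libraries, or among 4-digit numbers. In the fit of only these groups the 1 member called was Acot1. Acot7 turned to 0.0568 with the length slope, 0.19 without the steep libraries, and 0.0037 among 4-digit numbers, and Acot2 to 0.44 without the steep libraries. For FGF21 in controls, 13 genes were called, against 38 with DESeq2 and 0 with the number series. In LmnaADKO mice 0 were called by edgeR, 15 with DESeq2, and 2 among 4-digit numbers. The interaction gave 1, against 13 with DESeq2, 2 with DESeq2 size factors, 2 with the filter, 0 with the number series, 3 with the length slope, and 5 without the steep libraries.

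Without each library in turn, genes called with vehicle were 1723 to 2083 and members called 2 to 3, peroxisomal genes 2 to 5, mitochondrial oxidation 0 to 1, and PPARalpha targets 2 to 5. With FGF21 they were 339 (without FGF21-treated control 3) to 1149 (without FGF21-treated LmnaADKO 7) and members called 0 to 1. FGF21 in controls gave 3 to 26 genes, in LmnaADKO mice 0 to 61 (61 without FGF21-treated LmnaADKO 3), and the interaction 0 to 5. Values that changed sign were those of Acot7 with vehicle (−0.0402 to 0.1), and with FGF21 those of Acot2 (−0.39 to 0.43), Acot5 (−0.30 to 4.09), Acot7 (−0.21 to 0.28), and Acot13 (−0.18 to 0.62). No paired analysis was possible because the groups share no animal, litter, or library number in the labels. The interaction uses all 4 groups, so no fit of fewer groups was made, and 4-digit numbers alone left 1 vehicle-treated control. Depth limits Acot5, Acot10, and Them5 to a few counts.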

Other observations

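Them4, which encodes a mitochondrial thioesterase, was at 13.8, 14.3, and 18.8 CPM in the 3 FGF21-treated controls and between 9.34 and 13 CPM in the 7 vehicle-treated controls, so the groups did not overlap, as for 2.07% of expressed genes in this contrast. The log2 fold change was 0.43 ± 0.142 with an adjusted p of 0.526 in edgeR's test, which does not pass the threshold. The 1 vehicle-treated control with a 4-digit number, the series of all 3 treated controls, was at 13 CPM, among the highest of its group, and the value was 0.29 ± 0.166 with the number series as a covariate. Without FGF21-treated control 3, the steep library at 18.8 CPM, it was 0.27 ± 0.157. In LmnaADKO mice the value for FGF21 was 0.02 ± 0.113. Acot6 in LmnaADKO mice was at 1.46 to 4.77 CPM with FGF21 and 2.82 to 6.88 CPM with vehicle, with 5 of 8 treated libraries below every vehicle library, and its log2 fold change of −0.52 ± 0.201 did not pass either (adjusted p = 0.704, edgeR).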
